A study of Mus musculus with 12 samples.

Results

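The chromobox and polyhomeotic subunits of canonical Polycomb repressive complex 1 (PRC1), with the sex comb on midleg proteins that belong to the same complex, were examined across 12 RNA-seq libraries of mouse spermatogonia. Members were chosen by gene name as *Cbx2*, *Cbx6*, *Cbx7*, *Cbx8*, *Phc1*, *Phc2*, *Phc3*, *Scml2* and *Scmh1*, and all 9 were found among the 55385 genes of the deposited table. The libraries formed 6 groups of 2. WT A_undiff (undifferentiated spermatogonia, sorted as E-Cadherin+ CD9high KIT-) and WT A_diff (differentiating spermatogonia, sorted as E-Cadherin+ CD9medium KIT+) came from C57BL/6 mice 2 to 3 months old. A_undiff from mice on a mixed C57BL/6 X FVB/NJ background made up the other 4 groups. PRC1cKO males were Ring1-/-; Rnf2 F/-; Ddx4-Cre and their PRC1ctrl littermates Ring1-/-; Rnf2 F/+; Ddx4-Cre, so both genotypes lacked *Ring1* and carried a Cre that acts in germ cells. They were taken untreated at 2 mo, or after Win18446, an inhibitor of the retinoic acid-synthesising enzyme ALDH1A2. Win18446 was injected subcutaneously (50 µl at 40 µg/µl in DMSO) each day for about 30 days from the age of 1 month, and cells were taken 24 h after the last injection. The untreated PRC1ctrl and PRC1cKO libraries were made from about 7000 pooled cells with a low-input kit (Smart-Seq2). All others were made from 100000 to 150000 pooled cells with a stranded polyA kit (TruSeq).

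PRC1 places ubiquitin on histone H2A (the H2AK119 mark) through RING1 or RNF2. Canonical PRC1 carries a chromobox protein, which binds the H3K27me3 mark that PRC2 deposits, and a polyhomeotic protein, whose SAM domain polymerises and brings PRC1-bound chromatin together. Sex comb on midleg proteins join through the same kind of SAM domain, and SCML2 is known for its high level in male germ cells, where it acts on autosomal and X-linked genes. Variant PRC1 carries RYBP or YAF2 in place of the chromobox protein and can act without H3K27me3.

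TPM (a share of the library's transcripts) corrects for transcript length, so levels of different genes can be roughly compared within a library. Their order can still differ with the library method. *Phc1* was above *Phc2* in both PRC1ctrl libraries at 2 mo and below it in both after Win18446, where method and treatment change together. Read numbers cannot be got back from it, so depth and counting error are unknown, and precision rests on the 2 libraries of each group. Values were tested as log2(TPM + 1) with limma (two-sided, p adjusted over all genes tested), and a gene was called at an adjusted p under 0.05 with an absolute log2 fold change above 1. Fold changes on this scale understate those of genes near 1 TPM. In these bulk libraries, fewer cells of a type and less RNA per cell cannot be told apart. In markers of spermatogonia, sorted fractions went with their labels in WT. Of 14 markers of undifferentiated spermatogonia, 12 were called lower in A_diff (*Gfra1*, a receptor for the stem cell factor GDNF, fell from a mean of 69.3 to 3.81 TPM). Of 10 markers of differentiation, 8 were called higher, among them *Kit*, which the sort itself used. Markers of spermatids were also present, summing to 974.5 and 1048 TPM in A_undiff and to 737.9 and 916.7 TPM in A_diff. None of these 15 was called between the WT fractions, and their part in the members' values was not tested. *Ring1* was at 0.03 to 0.25 TPM in the 8 libraries from the Ring1-/- mice and at 8.61 to 19.9 TPM in WT. *Rnf2*, the gene deleted in PRC1cKO, was not lower under that label. It was at 28.26 and 47.63 TPM in PRC1ctrl against 56.73 and 67.48 TPM in the libraries labelled PRC1cKO at 2 mo, and at 78.09 and 67.16 TPM against 86.17 and 93.14 TPM after Win18446. A gene total does not show whether the deleted exons were present, so the genotypes are named by the labels of their libraries throughout.

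The members lie in few places in the genome (GRCm38). *Cbx2* (chr11:119022962-119031270, plus strand) and *Cbx8* (chr11:119036305-119040969, minus strand) are neighbours. *Cbx6* (chr15:79823896-79834688) and *Cbx7* (chr15:79915807-79971119) lie near each other on the minus strand, and 5.31% of the exonic bases of *Cbx6* are shared with *Npcd* on the same strand, so its reads could in part be counted for either gene. *Phc2* (chr4:128654702-128752881) and *Scmh1* (chr4:120405281-120530186) are on the plus strand of chromosome 4. *Phc1* is at chr6:122317731-122340561 and *Phc3* at chr3:30899371-30969415, both on the minus strand, and *Scml2* is at chrX:161082525-161258213 on the plus strand.

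Promoters of the 4 members that passed an adjusted p of 0.05 between WT A_undiff and WT A_diff are shown, since CpG-rich promoters are the usual place of PRC1 binding. Each is taken from the 250 bases before a RefSeq start (GRCm38.p6), up to the first annotated exon base within them, 5′ to 3′ on the gene's strand, with each CG in capitals. *Cbx7* is at chr15:79932769-79932896 (minus strand), which lies inside the annotated gene, in an intron of its longer transcripts, *Phc2* at chr4:128654452-128654701 (plus), *Phc3* at chr3:30969416-30969665 (minus) and *Scmh1* at chr4:120405098-120405280 (plus).
Cbx7: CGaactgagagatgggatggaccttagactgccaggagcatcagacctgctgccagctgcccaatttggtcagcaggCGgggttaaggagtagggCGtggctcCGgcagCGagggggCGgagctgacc
Phc2: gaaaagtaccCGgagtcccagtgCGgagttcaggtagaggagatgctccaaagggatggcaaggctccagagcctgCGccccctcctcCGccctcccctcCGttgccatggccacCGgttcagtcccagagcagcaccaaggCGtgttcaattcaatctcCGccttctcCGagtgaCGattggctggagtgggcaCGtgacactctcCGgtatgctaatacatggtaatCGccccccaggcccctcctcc
Phc3: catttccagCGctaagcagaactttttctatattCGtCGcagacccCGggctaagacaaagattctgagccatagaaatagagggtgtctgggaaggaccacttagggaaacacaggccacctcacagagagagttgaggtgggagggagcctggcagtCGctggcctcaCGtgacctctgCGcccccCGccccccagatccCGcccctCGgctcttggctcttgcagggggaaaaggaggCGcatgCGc
Scmh1: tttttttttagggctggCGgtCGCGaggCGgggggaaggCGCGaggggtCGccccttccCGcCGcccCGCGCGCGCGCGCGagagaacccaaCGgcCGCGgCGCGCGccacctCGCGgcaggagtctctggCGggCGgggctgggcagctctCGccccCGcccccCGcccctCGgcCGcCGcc
The printed stretches differ in length. They held 6 CG in 128 bases for *Cbx7*, 13 in 250 for *Phc2*, 12 in 250 for *Phc3* and 32 in 183 for *Scmh1*. *Phc2* has 2 further RefSeq starts, with 1 and 34 CG in their 250 bases, and *Scmh1* 1 further start with 0, which are not printed. Over the whole 250 bases, the first *Scmh1* start had 45 CG, more than 99.6% of the 32851 RefSeq promoters, whose median was 6. On the same count *Cbx7* had 23 CG, more than 86.7% of promoters. The printed *Phc2* and *Phc3* starts had more than 68.5% and 66.5% of promoters. RefSeq promoter entries were matched for 8 of the 9 members (all but *Cbx2*). The letters CACGTG, a palindrome that reads the same on both strands, were searched in the 250 bases. They occurred in *Cbx6*, *Cbx8*, *Phc3* and 1 of the 3 *Phc2* starts (the one printed), and in 6.02% of all promoters. The letters include a CG and these starts held 12 to 22 CG, so that share is not matched for CG content.

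In WT A_undiff, *Scml2* was the most abundant member and *Phc3* the least. *Scml2* was at 203.77 and 190.53 TPM in the 2 libraries, above 95.1% to 95.5% of the genes expressed there. *Phc2* (91.67 and 109.07 TPM), *Cbx2* (87.64 and 109.07 TPM) and *Phc1* (72.26 and 82.76 TPM) came next, and the ranges of *Phc2* and *Cbx2* overlapped. *Scmh1* (42.75 and 37.99 TPM), *Cbx8* (31.38 and 33.12 TPM) and *Cbx7* (24.37 and 36.42 TPM) lay lower, with *Cbx7* overlapping *Cbx8*. *Cbx6* (3.41 and 4.01 TPM) and *Phc3* (2.37 and 2.73 TPM) were lowest, *Phc3* above only 16.4% to 18.6% of expressed genes. Within each family, then, 1 or 2 genes carried most of the summed TPM in these TruSeq libraries. *Cbx2* held 59.7% ± 0.0176 (SD, n = 2) of the summed TPM of the 4 chromobox members. *Phc1* and *Phc2* together held nearly all of the polyhomeotic sum, and *Scml2* 83.0% ± 0.507 of the sum of *Scml2* and *Scmh1*.

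**Figure D1:**
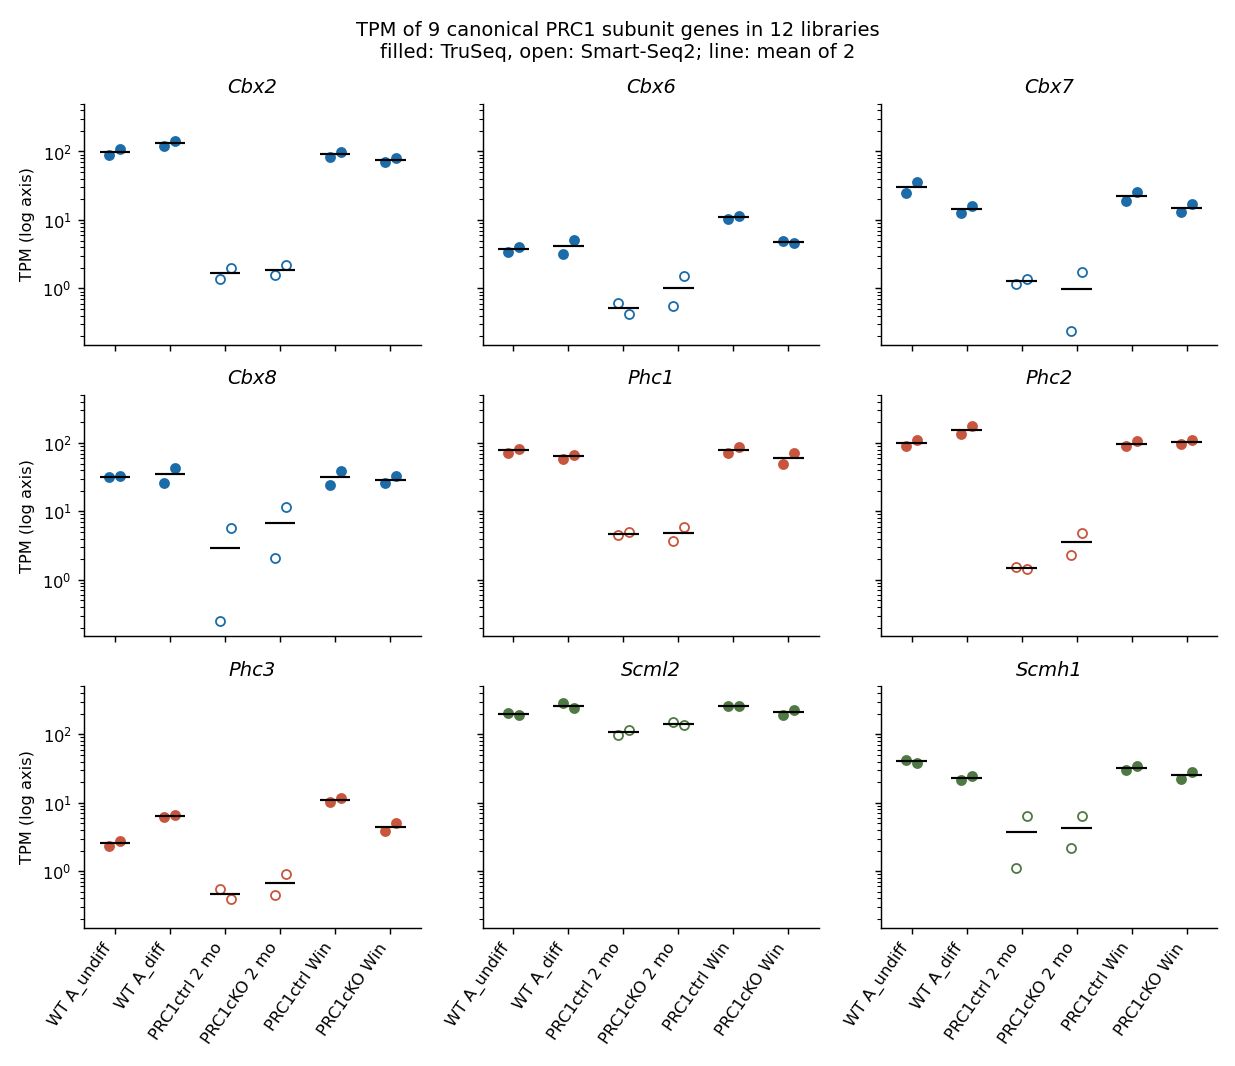
TPM (log axis) of each member in the 12 libraries, in 6 groups of 2 ("Win" marks Win18446), with filled points for TruSeq, open points for Smart-Seq2 and a line at each group mean. All 9 members were lower in the 4 Smart-Seq2 libraries than in the 8 TruSeq libraries, *Phc3* rose from WT A_undiff to WT A_diff while *Cbx7* and *Scmh1* fell, and *Phc3* and *Cbx6* were lower in libraries labelled PRC1cKO than in PRC1ctrl after Win18446.

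The comparison of WT A_diff with WT A_undiff asks how the members move as spermatogonia differentiate. The polyhomeotic genes *Phc3* and *Phc2* rose, while the chromobox gene *Cbx7* and the sex comb on midleg gene *Scmh1* fell. Of the 9 members, 1 was called higher (*Phc3*) and 1 lower (*Cbx7*), where 11.1% and 9.24% of the 15470 genes tested were called. At an adjusted p under 0.05 alone, 2 were higher and 2 lower, against 23.4% and 14.7% of all genes. These shares are close to those of all genes, and the members' median log2 fold change (0.107) was close to that of all genes (0.149). Over all genes 1724 were called higher and 1430 lower, and 1166 and 1750 under median-of-ratios scaling.

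Among the chromobox members, *Cbx7*, which binds H3K27me3 and is known as a main chromobox protein of self-renewing embryonic stem cells, fell. It was at 24.37 and 36.42 TPM in A_undiff and at 12.83 and 15.72 TPM in A_diff, with both A_diff libraries below both A_undiff libraries. Its log2 fold change was -1.02 (SE 0.24, limma adjusted p = 0.0183), from a mean of 30.4 ± 8.52 to 14.3 ± 2.04 TPM (SD, n = 2). The call was lost without the second A_undiff library (-0.74, adjusted p = 0.0921) and, on the fold threshold, without the first A_diff library (-0.88). It was also lost with no filter on low values (adjusted p = 0.0522) and in a fit over all 12 libraries (adjusted p = 0.0658). *Cbx2*, which compacts nucleosomes through a positively charged region, was at 87.64 and 109.07 TPM in A_undiff and at 119.21 and 143.53 TPM in A_diff. The groups did not overlap, and the log2 fold change of 0.42 (SE 0.16) did not pass the test (adjusted p = 0.0905). *Cbx8* (31.38 and 33.12 against 26.33 and 43.1 TPM) and *Cbx6* (3.41 and 4.01 against 3.18 and 5.13 TPM) overlapped between the groups, with log2 fold changes of 0.06 (adjusted p = 0.859) and 0.11 (adjusted p = 0.792).

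None of the 3 polyhomeotic genes overlapped between the groups, with *Phc2* and *Phc3* higher and *Phc1* lower in A_diff. *Phc3* was at 2.37 and 2.73 TPM in A_undiff and at 6.24 and 6.57 TPM in A_diff, a log2 fold change of 1.06 (SE 0.23, adjusted p = 0.0153). Its call was lost without either A_undiff library (0.99 and 1.14, adjusted p = 0.0854 and 0.0576). *Phc2* was at 91.67 and 109.07 TPM in A_undiff and at 133.45 and 178.8 TPM in A_diff, and rose by a log2 fold change of 0.62 (SE 0.18, adjusted p = 0.0367). It did not pass under median-of-ratios scaling (limma adjusted p = 0.103), quantile normalization (adjusted p = 0.115) or no filter on low values (adjusted p = 0.0926). The same held without limma's trend and robust options (adjusted p = 0.0883) and in a fit over all 12 libraries (adjusted p = 0.135). Nor did *Phc2* pass without the first or second A_undiff library or the second A_diff library (log2 fold changes 0.50, 0.75 and 0.41). *Phc1*, the most abundant polyhomeotic gene of embryonic stem cells, was at 72.26 and 82.76 TPM against 59.06 and 67.58 TPM, a log2 fold change of -0.29 (SE 0.15, adjusted p = 0.166).

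*Scmh1*, whose protein binds polyhomeotic proteins through its SAM domain, fell from 42.75 and 37.99 TPM in A_undiff to 21.26 and 24.92 TPM in A_diff, with no overlap. Its log2 fold change was -0.78 (SE 0.16, limma adjusted p = 0.0135). *Scmh1* did not pass in a fit over all 12 libraries (adjusted p = 0.32), nor without the first A_undiff library (log2 fold change -0.70). *Scml2* was at 203.77 and 190.53 TPM in A_undiff and at 286.39 and 239.87 TPM in A_diff. Both A_diff libraries were the higher ones, and the log2 fold change of 0.41 (SE 0.13) lay just outside the threshold (adjusted p = 0.0532). In all, 4 members were higher and 3 lower without overlap, where 43.4% and 28.7% of all genes were.

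**Figure D2:**
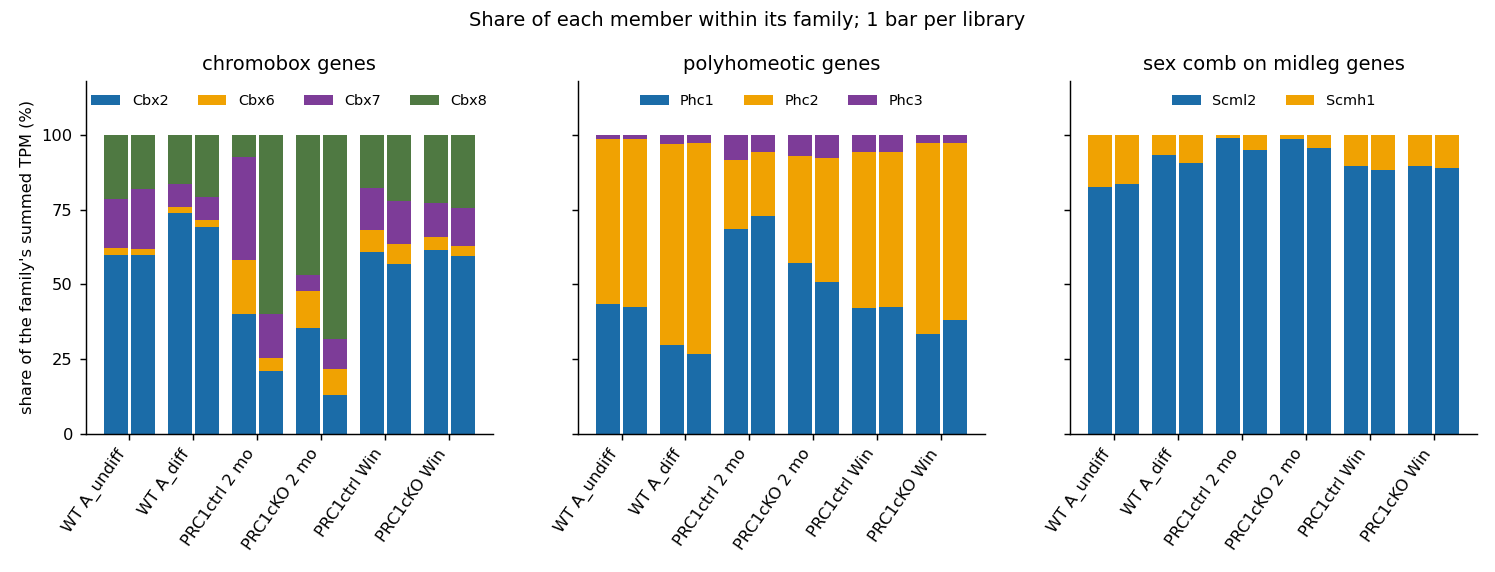
Share (%) of each gene in the summed TPM of its family, 1 stacked bar per library, for the 4 chromobox, 3 polyhomeotic and 2 sex comb on midleg genes. From WT A_undiff to WT A_diff the *Cbx7* and *Phc1* shares were smaller and the *Cbx2*, *Phc2* and *Scml2* shares larger, and at 2 mo the chromobox shares differed widely between replicates.

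A share within a family does not depend on how a library is scaled, and the shares also differed between the WT groups. The *Cbx7* share of the 4 chromobox members was 18.3% ± 2.36 in A_undiff and 7.76% ± 0.258 in A_diff (SD, n = 2), while the *Cbx2* share was 59.7% ± 0.0176 and 71.5% ± 3.26. The *Phc1* share was 43.0% ± 0.647 and 28.2% ± 2.12, against 55.6% ± 0.662 and 68.9% ± 2.50 for *Phc2*. These groups did not overlap, but an exact permutation test of 2 against 2 cannot give a two-sided p below 0.33.

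Of the canonical PRC1 partners given here (*Bmi1*, *Pcgf2*, *Ring1* and *Rnf2*), 1 of 4 was called higher and none lower. At an unadjusted p under 0.05, 2 were higher and none lower, where 7593 of all 15470 genes passed. *Pcgf2*, whose product pairs with RING1 or RNF2 in canonical PRC1, rose from a mean of 28.4 to 63.1 TPM (log2 fold change 1.12, adjusted p = 0.00532), while its paralog *Bmi1* had a log2 fold change of 0.21 (adjusted p = 0.514). In variant PRC1, 2 of 26 genes were called higher (*Yaf2*, 1.34, and *Usp7*, 1.08) and 2 lower (*Bcor*, -1.88, and *Pcgf6*, -1.72). In PRC2, 2 of 13 were called higher (*Epop*, 1.69, and *Rbbp4*, 1.09) and 1 lower (*Phf19*, -1.02). Of the HP1 chromobox genes, which read H3K9 methylation instead, 1 of 3 was called higher (*Cbx1*, 1.38). Of the genes linked to removal of the H2AK119 mark (deubiquitinases and their partners), 2 of 12 were called lower (*Foxk1*, -1.38, and *Usp3*, -1.16). None of the 7 tested other MBT or SAM domain genes was called, with 3 higher and 1 lower at an adjusted p under 0.05. Sertoli cell markers summed to 63.4 to 72.9 TPM in A_undiff and to 41.4 to 44.1 TPM in A_diff, with 2 of 8 tested called lower, and their part in the members' values was not tested.

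**Figure D3:**
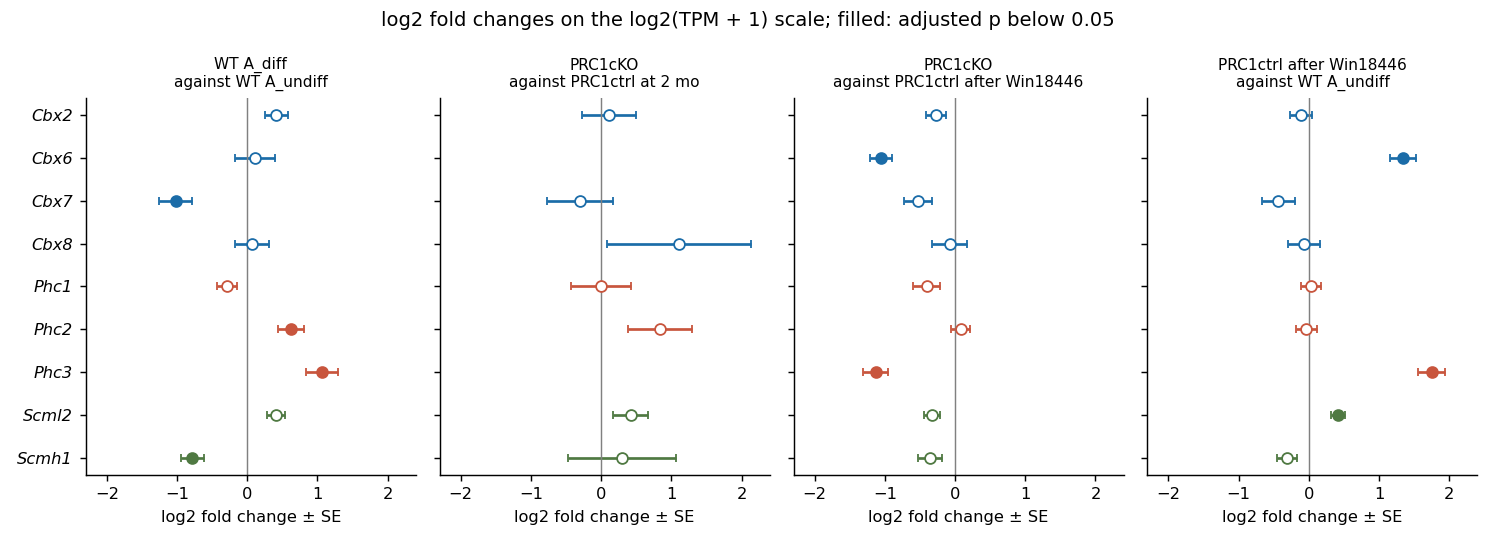
Log2 fold changes (points, with bars for ± SE) of the members in the 4 comparisons of 2 libraries against 2, on the log2(TPM + 1) scale, filled where the limma adjusted p is under 0.05. *Phc3* (1.06, then -1.13 and 1.75) and *Cbx6* (0.11, then -1.05 and 1.34) lie farthest out in the comparisons after Win18446, and at 2 mo, where *Cbx6* and *Phc3* were too low to be tested, no point is filled.

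After Win18446, libraries labelled PRC1cKO were compared with PRC1ctrl to ask how A_undiff of the 2 labels differ when differentiation is blocked. *Cbx6* and *Phc3*, the 2 least abundant members, were lower under the label PRC1cKO, and no member was called higher. These 2 of 9 were called lower where 10.9% of the 16521 genes tested were, and 1.27% were called higher. At an adjusted p under 0.05 alone the same 2 were lower and none higher, against 26.7% and 5.87%. *Phc3* was at 10.1 and 11.8 TPM in PRC1ctrl and at 3.89 and 5.05 TPM in the libraries labelled PRC1cKO, with no overlap. Its log2 fold change was -1.13 (SE 0.18, adjusted p = 0.00552), or 0.408-fold in mean TPM. *Cbx6* was at 10.37 and 11.42 TPM and at 4.89 and 4.56 TPM in the same order, a log2 fold change of -1.05 (SE 0.15, adjusted p = 0.00436) and 0.434-fold in mean TPM. Both passed the adjusted p under median-of-ratios scaling, with log2 fold changes under the fold threshold (-0.92 and -0.84). The fold of *Phc3* was also under it without the first library labelled PRC1cKO (-0.98, adjusted p = 0.0459), and that of *Cbx6* without the second PRC1ctrl library (-0.99, adjusted p = 0.00389).

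The other 7 members did not pass the test. *Cbx7* was at 18.82 and 25.19 TPM in PRC1ctrl and at 13.02 and 16.86 TPM under the label PRC1cKO (log2 fold change -0.53, SE 0.19, adjusted p = 0.0815). *Scml2* was at 260.87 and 263.81 TPM against 191.64 and 227.29 TPM (-0.33, SE 0.12, adjusted p = 0.0803). *Phc1* (-0.40), *Scmh1* (-0.36) and *Cbx2* (-0.27) were likewise lower in both libraries labelled PRC1cKO, with adjusted p from 0.145 to 0.174. *Cbx8* (-0.08) and *Phc2* (0.08) overlapped between the labels. Thus 7 of 9 members were lower without overlap, where 49.3% of all genes were, and none higher, where 20.1% were. The members' median of -0.36 stood beside -0.19 for all genes. Median-of-ratios scaling moved the median of all genes to 0.03, and the calls over all genes from 210 higher and 1807 lower to 374 and 1249.

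PRC1ctrl A_undiff after Win18446 were also compared with WT A_undiff, both made with TruSeq. The loss of *Ring1*, the Cre with its floxed *Rnf2* allele, the background strain, the age range, the treatment and its vehicle change together here. They cannot be told apart. The comparison also shares the PRC1ctrl libraries with the one above and the WT A_undiff libraries with the first. *Phc3* was at 2.37 and 2.73 TPM in WT and at 10.1 and 11.8 TPM in PRC1ctrl, 4.29-fold in mean TPM (log2 fold change 1.75, SE 0.19, adjusted p = 0.00273). *Cbx6* was at 3.41 and 4.01 TPM in WT and at 10.37 and 11.42 TPM in PRC1ctrl, 2.94-fold (1.34, SE 0.18, adjusted p = 0.00432). Both were called higher, as were 16.4% of the 16602 genes tested, and no member was called lower, against 3.17%. At an adjusted p under 0.05 alone, where 33.9% of all genes were higher and 8.6% lower, *Scml2* joined them and no member was lower. *Scml2* rose from 203.77 and 190.53 TPM to 260.87 and 263.81 TPM, with no overlap (0.41, SE 0.10, adjusted p = 0.0193). It did not pass without either WT library or the second PRC1ctrl library (adjusted p = 0.0544 to 0.0892), nor under median-of-ratios scaling (0.064, adjusted p = 0.655). These 3 members were higher without overlap, where 54.3% of all genes were, and *Scmh1* was the 1 member lower without overlap (-0.31, adjusted p = 0.126), where 19.6% were. *Cbx7* (-0.44), *Cbx2* (-0.12), *Cbx8* (-0.07), *Phc2* (-0.04) and *Phc1* (0.03) overlapped, and the members' median (-0.04) lay below that of all genes (0.30). Over all genes 2727 were called higher and 527 lower, and 1681 and 917 under median-of-ratios scaling.

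Transcript length moved with both comparisons after Win18446. *Phc3* (longest transcript 10976 bases) and *Cbx6* (7850 bases) are the longest members, the others having 3544 to 6057 bases. From the shortest to the longest quartile of tested protein-coding genes, the median log2 fold change of libraries labelled PRC1cKO against PRC1ctrl went from 0.06 through -0.10 and -0.21 to -0.45. For PRC1ctrl against WT it went from -0.03 through 0.19 and 0.35 to 0.61. Among genes with at least 7500 bases, a bound set after these lengths were seen, 28.5% of 972 were called lower in the former and 36.5% of 964 higher in the latter. After a smooth trend with length and GC content was removed from each library, an alternative added after the data were seen, *Cbx6* differed between the labels by -0.59 (SE 0.16, adjusted p = 0.0324) and *Phc3* by -0.36 (SE 0.13, adjusted p = 0.0789), and *Scml2* turned to 0.13. With the trend removed, PRC1ctrl remained higher than WT A_undiff for *Phc3* (0.83, adjusted p = 0.013) and *Cbx6* (0.72, adjusted p = 0.0152). *Scml2* turned there to -0.19 (adjusted p = 0.0731), and *Cbx7* (-0.95, adjusted p = 0.0064), *Cbx2* (-0.44, adjusted p = 0.0087), *Phc2* (-0.40, adjusted p = 0.0109) and *Scmh1* (-0.60, adjusted p = 0.0171) passed the test as lower. Between WT A_diff and WT A_undiff the medians by length went from 0.03 to 0.26. There the trend-removed values were 0.83 for *Phc3* (limma adjusted p = 0.0271), -1.31 for *Cbx7* (adjusted p = 0.00298) and -0.76 for *Scmh1* (adjusted p = 0.0119). *Phc1* now passed as lower (-0.36, adjusted p = 0.0279), while *Phc2* no longer passed (adjusted p = 0.0829).

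**Figure D4:**
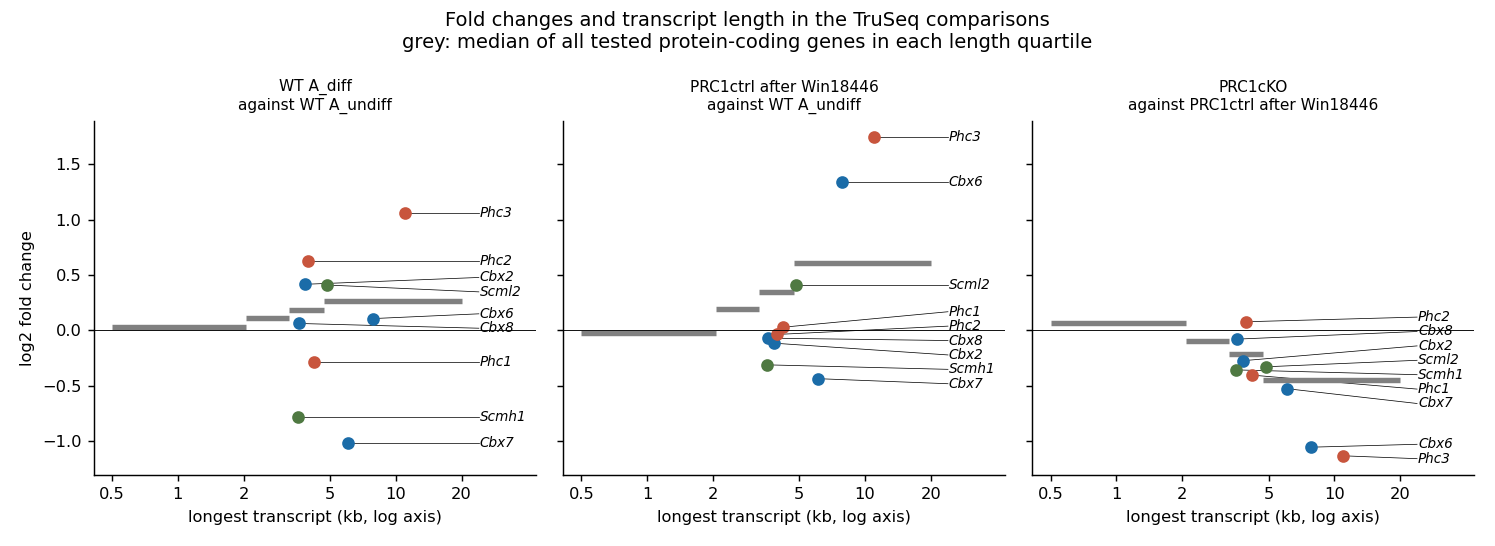
Log2 fold change of each member (y axis, log2(TPM + 1) scale) against the length of its longest transcript (x axis, kb, log axis) in the 3 TruSeq comparisons, with grey lines at the median of tested protein-coding genes in each length quartile (drawn from 0.5 to 20 kb). After Win18446 the grey medians run from 0.06 to -0.45 between the labels and from -0.03 to 0.61 against WT, and *Phc3* and *Cbx6* lie beyond them at the far right.

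Markers of other cells moved with the labels after Win18446 as well. Between PRC1ctrl and the libraries labelled PRC1cKO, 9 of 13 tested spermatid markers were called lower (summed 210 to 224 TPM against 72.5 to 81.0 TPM), and so were 3 of 9 spermatocyte markers. By contrast 4 of 10 markers of differentiating spermatogonia were called higher, *Kit* from a mean of 7.3 to 21.2 TPM (summed 685 to 734 TPM against 915 to 985 TPM). At an adjusted p under 0.05 alone, 7 of these were higher and 1 lower. *Stra8* was at 10.73 and 12.43 TPM in PRC1ctrl and at 7.91 and 7.9 TPM under PRC1cKO. Leydig cell markers, none of 5 called, summed to 82.1 and 397 TPM in PRC1ctrl and to 20.6 and 73.2 TPM under PRC1cKO. Against WT A_undiff, PRC1ctrl had 6 of 10 spermatocyte and 5 of 9 tested Sertoli cell markers called higher (Sertoli sums of 150 to 238 TPM against 63.4 to 72.9 TPM in WT) and 10 of 15 spermatid markers called lower. There 3 of 14 markers of undifferentiated spermatogonia were called lower too (*Gfra1* from a mean of 69.3 to 14.7 TPM), and 1 of 5 tested Leydig cell markers was called higher (summed 21.0 and 41.5 TPM in WT). Their part in the values of *Phc3* and *Cbx6* was not tested.

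Among the other Polycomb genes after Win18446, none of the 3 tested canonical partners was called between the labels (1 higher at an unadjusted p under 0.05), and *Rnf2* had a log2 fold change of 0.30 (SE 0.12, adjusted p = 0.107). In variant PRC1, 1 of 26 was called lower (*Mga*, -1.03). None of the 13 PRC2 genes was called, with 1 higher and 7 lower at an adjusted p under 0.05. At an unadjusted p under 0.05, 1 PRC2 gene was higher and 8 lower, where 7317 of all 16521 genes passed. Of the genes linked to removal of the H2AK119 mark, 3 of 12 were called lower: *Asxl3* (-1.84) and *Asxl2* (-1.12), cofactors of the deubiquitinase BAP1, and the deubiquitinase gene *Mysm1* (-1.20). Among other MBT or SAM domain genes, *Phf20l1* was called lower (-1.77). Against WT A_undiff, PRC1ctrl had 3 of 26 variant PRC1 genes called higher (*Bcor*, 1.47, *Auts2*, 1.26, and *Mga*, 1.21) and none lower. At an unadjusted p under 0.05, 13 of the 26 were higher and 1 lower, where 8689 of all 16602 genes passed. Of the 13 PRC2 genes, 1 was called higher (*Aebp2*, 1.02) and 1 lower (*Phf19*, -1.20). Of the 11 tested other MBT or SAM domain genes, 3 were called higher (*Phf20l1*, 1.61, *L3mbtl4*, 1.25, and *Scml4*, 1.02). So were 2 of the 12 genes linked to removal of the H2AK119 mark (*Asxl3*, 1.95, and *Asxl2*, 1.23).

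At 2 mo, the libraries labelled PRC1cKO were compared with PRC1ctrl without treatment, all made with Smart-Seq2. *Cbx6* and *Phc3* were too low to be tested, and of the 7 members tested none differed in limma. None passed even an unadjusted p under 0.05, where 1985 of all 13953 genes tested did, and 0.222% and 1.94% of all genes were called higher and lower. *Phc2* was at 1.52 and 1.45 TPM in PRC1ctrl and at 2.33 and 4.89 TPM in the libraries labelled PRC1cKO, 2.43-fold in mean TPM (log2 fold change 0.83, SE 0.45, adjusted p = 0.497). *Scml2* was at 97.35 and 116.84 TPM against 149.2 and 137.32 TPM, 1.34-fold (0.42, SE 0.25, adjusted p = 0.528). These 2 members did not overlap between the labels and were higher under PRC1cKO, as were 27.5% of all genes, and none was lower without overlap, where 17.3% were. *Cbx8* ranged over 0.25 and 5.64 TPM within PRC1ctrl and 2.06 and 11.62 TPM under PRC1cKO (1.11, SE 1.03), a spread between replicates as large as the difference.

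The remaining members at 2 mo were at a few TPM or less and overlapped between the labels. *Phc1* was at 4.53 and 4.93 TPM against 3.68 and 5.97 TPM, *Cbx2* at 1.35 and 1.96 TPM against 1.55 and 2.19 TPM, and *Cbx7* at 1.16 and 1.39 TPM against 0.24 and 1.73 TPM. *Scmh1* was at 1.11 and 6.35 TPM against 2.16 and 6.42 TPM. The standard errors of the 7 log2 fold changes ran from 0.25 to 1.03. The differences of *Phc2* and *Scml2* were larger than their standard errors and did not pass, so this comparison can miss differences beyond 1 standard error. Markers of undifferentiated spermatogonia summed to 927 to 1244 TPM in PRC1ctrl and to 454 to 608 TPM under PRC1cKO. Most of these sums was *Sall4* (517.46 and 704.1 TPM against 266.01 and 313.9 TPM). Of the 14 markers, 1 was called lower and none higher, and their median log2 fold change was -0.003. Markers of differentiating spermatogonia summed to 373 to 480 TPM and 762 to 994 TPM, and none of the 9 tested was called. Spermatid markers summed to 909 to 2218 TPM in PRC1ctrl and to 88.8 to 89.2 TPM under PRC1cKO, with 8 of 14 tested called lower, and Leydig cell markers to 1.04 to 1.21 TPM and 21.0 to 48.0 TPM. Their part in the members' values was not tested. None of the 25 tested variant PRC1 genes, the 10 tested PRC2 genes or the 3 tested canonical partners was called, and 1 of each passed an unadjusted p under 0.05.

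Whether the difference between the labels itself differed between 2 mo and Win18446 was tested as an interaction over the 8 libraries. No member passed an adjusted p of 0.05 in limma, where 7.81% of the 18354 genes tested did. At an unadjusted p under 0.05, 3 members passed (*Phc3*, *Cbx6* and *Scml2*), against 4541 genes in all. The values, after Win18446 minus 2 mo, were -1.31 for *Phc3* (adjusted p = 0.0639), -1.43 for *Cbx6* (adjusted p = 0.0712) and -0.75 for *Scml2* (adjusted p = 0.118). Without the first library labelled PRC1cKO at 2 mo, *Cbx6* passed (-1.78, adjusted p = 0.0451). Treatment and library method change together in this test and cannot be told apart.

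The largest differences in the members' levels lay between the library methods. Every member was lower in all 4 Smart-Seq2 libraries than in all 8 TruSeq libraries. The median TruSeq level was 56.1 times the median Smart-Seq2 level for *Phc2* (108 against 1.93 TPM) and 53.1 times for *Cbx2* (93.3 against 1.76 TPM). It was 15 times for *Phc1*, 14.0 for *Cbx7*, 11.3 for *Phc3*, 8.32 for *Cbx8*, 8.15 for *Cbx6* and 6.86 for *Scmh1*, and 1.84 times for *Scml2*, the smallest ratio among the members. Among related genes, the partner *Bmi1* was at 2.64 times. The HP1 chromobox gene *Cbx3* and the PRC2 genes *Ezh2* and *Eed* went the other way, at 0.10, 0.195 and 0.306 times.

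Within a genotype label, all 9 members were lower at 2 mo than after Win18446 without overlap, as were 63.7% of all genes tested in PRC1ctrl and 58.1% in the libraries labelled PRC1cKO. In PRC1ctrl the log2 difference, 2 mo minus Win18446, was -5.31 for *Phc2*, -5.11 for *Cbx2*, -3.80 for *Phc1* and from -2.97 to -3.46 for *Cbx6*, *Phc3*, *Scmh1*, *Cbx7* and *Cbx8*, against a median of -1.11 over all genes. *Scml2*, at -1.29, was near that median. The GC content of transcripts moved with this difference: over quartiles of rising GC, the median of protein-coding genes in PRC1ctrl was -0.06, -1.01, -1.76 and -2.51. *Phc2* (60.4% GC) and *Cbx2* (57.6%), with the largest differences, are the members richest in GC, and *Scml2* (41.5%), with the smallest, is the poorest. *Phc3* (43.8%) lay well below the median of its quartile. Mitochondrial genes held 12.5% to 16.7% of TPM in Smart-Seq2 libraries and 4.28% to 6.69% in TruSeq libraries, and 12422 to 13986 against 14796 to 16599 genes reached 1 TPM. Kit, cell number and treatment changed together between these groups and cannot be told apart, so a level of a member at 2 mo cannot be set against its level in WT.

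**Figure D5:**
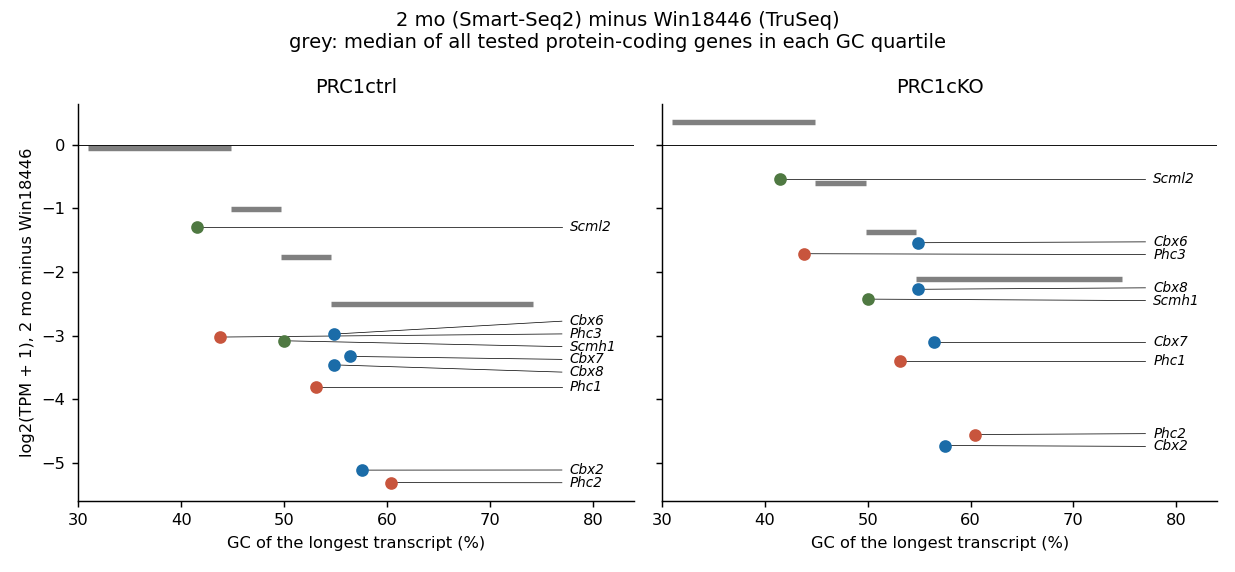
Difference in mean log2(TPM + 1) between 2 mo (Smart-Seq2) and Win18446 (TruSeq) for each member (y axis) against the GC content of its longest transcript (x axis, %), for PRC1ctrl and libraries labelled PRC1cKO, with grey lines at the median of tested protein-coding genes in each GC quartile. In PRC1ctrl the medians run from -0.06 to -2.51, all 9 members lie below the line of their quartile, and *Phc2* (-5.31) and *Cbx2* (-5.11) are lowest.

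For each member, the genes whose log2(TPM + 1) followed it most closely over the 12 libraries were listed from 10973 genes with a mean TPM of at least 5. These Pearson correlations are descriptions, since the libraries share 2 preparation methods between which levels differ, and the value over the 8 TruSeq libraries is given beside each. Closest to *Phc3* was *Macf1*, a cytoskeletal linker (0.992, and 0.975 within TruSeq), followed by *Taf4* and *Ino80*. *Cbx6* was followed by *Cdan1* (0.988 and 0.962), *Nkrf* and *Sos1*. Closest to *Cbx2* was *Dazap1* (0.999 and 0.964), to *Phc2* *Stk11ip* (0.999 and 0.973), to *Phc1* *Tbc1d22b* (0.999 and 0.945) and to *Cbx7* the hexokinase gene *Hk1* (0.994 and 0.965). *Scml2* was followed by *Tent4b* (0.988 and 0.950) and *Scmh1* by *Bnip2* (0.992 and 0.879). For *Cbx8* the closest gene, *Tex264*, had 0.994 over all libraries and 0.724 within TruSeq, the largest loss among these.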

How the data were processed

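Per the labels and methods, reads were trimmed with Trim Galore 0.6.6, aligned with HISAT2 2.2.1 to GRCm38 and counted with HTSeq 1.6.0 for DESeq2 1.28.1. The authors deposited TPM, computed with RSEM 1.3.3, whose annotation is not given in the sources used here. Counts were not used here. Of 55385 genes, 55144 identifiers matched gencode vM21.

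In each comparison, log2(TPM + 1) was tested for genes that reached 1 TPM in 2 or more libraries, using limma 3.58.1 in R 4.3.3 (trend and robust moderation, two-sided, Benjamini-Hochberg adjustment over all genes tested), after a check on simulated data. Replicates were independent pools of cells, numbered in the labels. Tables and figures were made with Python 3.11.15, pandas 2.3.3, numpy 2.4.6 and matplotlib 3.10.9.

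Named genes were all 9 members, *Ring1* and *Rnf2*, up to 3 called genes (largest changes) of each other list, and the 3 genes most correlated with each member. Some planned results are not reported here. Members and lists were chosen with earlier results of these data known. Alternatives were another pseudocount, other filters, scalings and moderation, the replicate block, a 12-library fit, leaving out each library and, added after seeing the data, removal of a length and GC trend.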

Additional observations from a re-analysis of the deposited data

Results flagged for a closer look

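*Scml2* was singled out because its difference between the labels went in opposite directions in the 2 settings. At 2 mo both libraries labelled PRC1cKO (149.2 and 137.32 TPM) were above both PRC1ctrl libraries (97.35 and 116.84 TPM), and after Win18446 both (191.64 and 227.29 TPM) were below PRC1ctrl (260.87 and 263.81 TPM). The difference of the log2 fold changes, after Win18446 minus 2 mo, was -0.75 (SE 0.24) and did not pass the limma interaction test over all genes (adjusted p = 0.118). With the length and GC trend removed, the log2 fold change after Win18446 was 0.13.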

How the results depend on the processing

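TPM holds no read counts, so the depth behind each value is unknown, and 2 libraries a group limit the precision. Members near 1 TPM at 2 mo are limited most. Of 576 recomputed member fold changes, 484 kept their direction and side of the threshold, 23 lost and 22 gained the threshold, and 47 changed sign. Of those 47, 1 had an adjusted p under 0.05 at first (*Scml2*, PRC1ctrl after Win18446 against WT A_undiff). Where no construction of the alternative shows it, the cause was not tested.

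With all genes tested and no filter, WT A_diff against A_undiff had 0 members called lower (1 with the filter) and 1 each higher and lower at an adjusted p under 0.05 (2 each). At 2 mo it called 0 genes higher and 0 lower of all genes (31 and 270 with the filter), and 931 passed the interaction test (1433). Under a mean TPM of at least 5, which leaves out *Phc3* in WT, 0 members were called higher there and 869 genes lower (1430). At 2 mo it gave 6 higher and 90 lower, between the labels after Win18446 104 and 851 (210 and 1807), for PRC1ctrl against WT A_undiff 1420 and 244 (2727 and 527), and 176 in the interaction. A pseudocount of 0.1 gave 406 lower at 2 mo, 381 higher between the labels after Win18446 and 470 in the interaction, where *Cbx7* was at 0.24.

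Median-of-ratios scaling left 0 WT members called higher and 1 at an adjusted p under 0.05, with *Cbx6* at -0.031 and *Cbx8* at -0.11. At 2 mo it called 84 genes higher and 833 lower, with *Cbx2* at -0.086. Between the labels after Win18446 it left 0 members called lower and 374 genes higher, with *Cbx8* at 0.16. Against WT A_undiff 3 members were lower at an adjusted p under 0.05 (0 without it), 1681 genes were called higher and 917 lower, and *Phc1* was at -0.32. In the interaction *Cbx2* was at 0.21, *Cbx7* at 0.46 and *Phc1* at 0.27. Quantile normalization left 1 WT member higher at an adjusted p under 0.05 and *Cbx8* at -0.13, and at 2 mo gave 103 higher and 599 lower. Between the labels after Win18446 it left 0 members called lower, 587 genes higher and 879 lower, with *Cbx8* at 0.19. Against WT A_undiff it left 1 member called higher and 2 lower at an adjusted p under 0.05, with 1181 genes higher, 1098 lower and *Phc1* at -0.13, and in the interaction *Cbx7* was at 0.21.

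Removal of the length and GC trend left 0 WT members called higher and 1 higher at an adjusted p under 0.05, with *Cbx6* at -0.14 and *Cbx8* at -0.052. At 2 mo it gave 224 higher and 657 lower, with *Cbx2* at -0.47. Between the labels after Win18446 it left 0 members called lower, 1 at an adjusted p under 0.05, 418 genes higher and 888 lower, with *Cbx8* at 0.064 and *Scml2* at 0.13. Against WT A_undiff 0 members were called higher and 4 were lower at an adjusted p under 0.05, 1286 genes were higher and 911 lower, *Phc1* was at -0.28 and *Scml2* at -0.19. In the interaction *Cbx2* was at 0.15, *Cbx7* at 0.50 and *Phc1* at 0.13. limma without trend and robust options left 1 WT member higher at an adjusted p under 0.05. The fit over all 12 libraries left 0 WT members called lower, 1 higher and 0 lower at an adjusted p under 0.05, and gave 662 higher and 1049 lower at 2 mo.

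Nothing in the labels ties same-numbered libraries together beyond the number: the correlations of their deviations from the group means were 0.158 (WT), 0.381 (2 mo), 0.122 (Win18446) and 0.0746 (PRC1ctrl against WT A_undiff), with 2 pairs each. With the replicate number as a block, 4 WT members were higher at an adjusted p under 0.05 (2 without it), 5 were lower between the labels after Win18446 (2; *Cbx7*, *Phc1* and *Scmh1* joined *Cbx6* and *Phc3*), and 1 was lower against WT A_undiff (0). At 2 mo the block called 1074 genes higher and 1098 lower.

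When each library was left out in turn, the lone library left in its group was taken to vary like the other group. In WT, 0 to 1 members were called higher, 0 to 1 lower, 0 to 3 higher and 1 to 2 lower at an adjusted p under 0.05, and 816 to 1545 genes were called lower (816 without the second and 915 without the first WT A_undiff library). *Cbx6* ran from -0.17 to 0.38 and *Cbx8* from -0.28 to 0.41. At 2 mo, 1 to 124 genes were called higher and 44 to 149 lower, each omission taking the lower calls below the 270 of all 4 libraries, and the log2 fold change ran from -0.054 to 0.28 for *Cbx2*, -0.096 to 2.31 for *Cbx8*, -0.60 to 1.2 for *Scmh1*, -0.29 to 0.28 for *Phc1* and -0.87 to 0.26 for *Cbx7*. Between the labels after Win18446, 1 to 2 members were called lower, with 899 to 1981 genes lower (899 without the second PRC1ctrl library) and 139 to 290 higher (139 without the second PRC1cKO library), *Phc2* from -0.054 to 0.21 and *Cbx8* from -0.41 to 0.25. Against WT A_undiff, 1544 to 3028 genes were called higher (1544 without the second PRC1ctrl library), with *Phc1* from -0.11 to 0.17, *Cbx2* from -0.27 to 0.041, *Phc2* from -0.17 to 0.096 and *Cbx8* from -0.40 to 0.26. In the interaction, 21 to 1443 genes and 0 to 1 members passed: after Win18446, 117 and 44 genes without the first and second PRC1ctrl library and 21 and 25 without the first and second PRC1cKO library, and at 2 mo, 665 without the first PRC1ctrl and 232 without the second PRC1cKO library, with *Cbx8* from -2.39 to 0.017, *Scmh1* from -1.55 to 0.25 and *Cbx7* from -0.79 to 0.35.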
